A study of Mus musculus with 19 samples.

Results

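Melan-a is an immortal line of melanocytes, the pigment cells of the mouse, and tumours grown from it held a minority of pigmented cells that carried the transcripts of dividing cells. These cycling melanocytic cells are the subject here. They were chosen in 4 single-cell matrices, each taken apart. A barcode entered the melanocytic gate when it had at least 2000 UMIs (unique molecular identifiers, the count of captured transcripts), under 20% of them mitochondrial, at least 5 of 9 pigment-cell genes detected (Mlana, Pmel, Tyr, Tyrp1, Dct, Slc45a2, Slc24a5, Oca2 and Gpr143), and no UMI of the immune genes Ptprc and C1qb. A gated cell was called cycling when at least 4 of Mki67, Top2a, Cenpf, Cdk1, Ccnb1, Ccna2, Birc5 and Aurkb were detected. The rule found 2844 cycling cells among 25471 gated cells, which is 11.17% of the gate, out of 74436 barcodes in all. They were set against the 11977 gated cells with 0 of the 8 genes, called reference cells below. The cells were chosen by their expression, so every contrast of cycling with reference cells is a description of the choice and was given no test.

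The cells that had been injected into syngeneic animals were Melan-a cells with intact Bap1 (WT) or Melan-a cells in which Bap1 had been knocked out by CRISPR (KO), placed under the skin or in the eye, and no drug was given. BAP1 is a nuclear deubiquitinase and tumour suppressor. The labels do not say which of the study's knockout clones gave a tumour, nor the age of the mice, and the whole tumour was dissociated, so host cells were in the suspensions. The sample is described as multiplexed. It is also said to be of 1 batch. Each of the 4 names, which are WT or KO with skin or ocular, belongs to 1 matrix. The number of tumours behind each matrix was not established here. Genotype and site were taken only from those names, so no difference between matrices has a replicate check, and intervals cover counting error only. The bulk RNA libraries and the genome and exome libraries were not analysed here.

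The matrices held 11283 to 38176 barcodes each, and 88752748 to 115566351 UMIs in total. In the matrix labelled WT ocular 32285 genes were listed and each barcode had 16 bases. The other 3 matrices had 19059 genes and barcodes of 24 bases, so the levels of WT ocular are given beside theirs without a ratio, and the other 3 are called the matrices of one assay below. Ccnb1 was read only there, so 7 of the 8 cycling genes decided the call in the other 3 matrices. Whole barcodes shared between matrices numbered 0. The first 16 bases of a barcode recurred between the 3 matrices of longer barcodes, in 2417 cases for the 2 skin matrices, and 123 cycling cells of the matrix labelled WT skin (24.0%) had such a partner in the matrix labelled KO skin. Whether any of these were the same cell was not tested.

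Cells that divide copy their DNA in S phase and separate the copies in mitosis. Transcription of both programmes is staggered. E2F factors switch on genes of DNA replication and nucleotide supply, and the DREAM and B-MYB complexes govern genes of the spindle, the kinetochore and the anaphase-promoting complex through CHR elements, often next to CCAAT boxes bound by NF-Y. Melanocytes divide rarely in adult skin and eye, and in melanoma Ki-67, the product of Mki67, is a routine marker of proliferating tumour cells.

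The promoters of 4 mitotic genes and of 1 regulator of S phase entry are shown, because they hold the letters through which these factors are known to act. The sequences are from RefSeq, build GRCm38.p6. Each covers the 250 bases before the annotated start, 5′ to 3′ on the gene's strand. Capitals mark TTTGAA or TTCGAA (CHR), CCAAT, and TTTCGCGC or TTTGGCGC (E2F), on either strand. Where CCAAT and its reverse complement overlap, as once in Ube2c, they run together.
Cdk1, chr10:69352913-69353162, minus strand: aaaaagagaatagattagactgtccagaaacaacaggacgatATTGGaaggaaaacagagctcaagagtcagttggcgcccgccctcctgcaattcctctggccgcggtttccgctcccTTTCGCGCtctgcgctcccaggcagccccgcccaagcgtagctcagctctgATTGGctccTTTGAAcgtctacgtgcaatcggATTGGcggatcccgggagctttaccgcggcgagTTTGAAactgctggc
Top2a, chr11:99024190-99024439, minus strand: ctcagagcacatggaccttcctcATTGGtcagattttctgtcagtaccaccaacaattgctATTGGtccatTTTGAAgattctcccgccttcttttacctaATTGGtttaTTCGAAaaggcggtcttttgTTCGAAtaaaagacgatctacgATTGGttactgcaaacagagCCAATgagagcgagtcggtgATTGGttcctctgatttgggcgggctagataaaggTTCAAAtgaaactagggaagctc
Cdc20, chr4:118437344-118437593, minus strand: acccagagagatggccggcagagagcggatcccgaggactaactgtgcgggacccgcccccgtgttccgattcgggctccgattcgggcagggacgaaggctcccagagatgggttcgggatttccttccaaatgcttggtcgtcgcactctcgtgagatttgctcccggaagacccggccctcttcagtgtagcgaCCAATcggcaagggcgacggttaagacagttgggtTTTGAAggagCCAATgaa
Ube2c, chr2:164769679-164769928, plus strand: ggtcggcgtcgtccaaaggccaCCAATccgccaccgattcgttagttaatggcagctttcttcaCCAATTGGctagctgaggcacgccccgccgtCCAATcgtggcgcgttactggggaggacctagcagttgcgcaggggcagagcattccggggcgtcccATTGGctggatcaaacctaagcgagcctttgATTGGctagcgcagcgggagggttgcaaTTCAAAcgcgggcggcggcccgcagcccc
Rbl1, chr2:157204535-157204784, minus strand: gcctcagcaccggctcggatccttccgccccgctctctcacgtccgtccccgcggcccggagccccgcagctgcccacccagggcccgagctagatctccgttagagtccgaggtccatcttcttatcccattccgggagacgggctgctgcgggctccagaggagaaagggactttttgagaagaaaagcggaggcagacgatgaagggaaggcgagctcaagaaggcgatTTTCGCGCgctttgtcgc

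The Cdk1 promoter had 2 CHR matches, the nearer starting 15 bases before the start site, and 1 E2F match. Top2a had 10 matches in all and Ube2c had 7, most of them CCAAT. Rbl1, a pocket protein that restrains E2F, had an E2F match starting 18 bases before the start. Promoters were matched for 58 of the 70 genes in the lists of mitotic entry kinases, spindle and mitotic exit, together called the G2/M lists. Either CHR form was in the promoters of 20 of those 58 genes (34.5%), of 5 of 26 S phase genes (19.2%) and of 19.6% of all 27025 genes with a promoter. CCAAT was in 69.0% of the G2/M genes, 69.2% of the S phase genes and 37.5% of all genes. Of 11 histone genes, 6 (54.55%) had a CHR form and 11 (100%) had CCAAT, both larger shares than in the G2/M lists. Of 14 nucleotide synthesis genes 1 had a CHR form and 8 had CCAAT. Of 11 genes of homologous recombination and the Fanconi pathway these were 1 and 6. An E2F form was in 3.45% of the G2/M genes, in 19.2% of the S phase genes and in 0.759% of all genes, and in 0 of 14 nucleotide synthesis genes, 0 of 11 genes of homologous recombination and the Fanconi pathway and 1 of 11 histone genes. A match is a description of letters and not a bound site, and no binding was measured.

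The share of gated cells called cycling differed among the matrices and depended on depth. At all UMIs it was 10.98% (513 of 4673 cells, exact 95% interval 10.1 to 11.9%) in the matrix labelled WT skin, 6.70% (493 of 7360, 6.14 to 7.29%) in KO skin, 8.41% (737 of 8763, 7.84 to 9.01%) in WT ocular and 23.6% (1101 of 4675, 22.3 to 24.8%) in KO ocular. The matrix labelled KO ocular was the highest and KO skin the lowest. Gated cells of KO ocular also had the highest median depth, 9852 UMIs, against 5922, 4622 and 4435 in WT skin, KO skin and WT ocular.

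Detection of 4 genes needs depth, so each cell was also thinned at random to 2000 UMIs. The shares then were 3.38% (2.88 to 3.94%), 2.35% (2.02 to 2.72%), 1.44% (1.20 to 1.71%) and 4.92% (4.32 to 5.58%) in the same order. KO ocular remained the highest of the 4 and stood above WT skin by less than at full depth, while WT ocular was now the lowest. Thinned to 5000 UMIs, with shallower cells left out, the shares were 8.75% of 2698 cells, 7.85% of 3339, 9.01% of 3950 and 16.02% of 3677. There the intervals of WT skin (7.71 to 9.88%), KO skin (6.96 to 8.81%) and WT ocular (8.14 to 9.95%) overlapped, and only that of KO ocular (14.9 to 17.2%) lay apart from the other three. With the same 7 genes in each matrix, WT ocular had 7.44% at full depth, 1.05% at 2000 UMIs and 7.92% at 5000 UMIs.

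**Figure D1:**
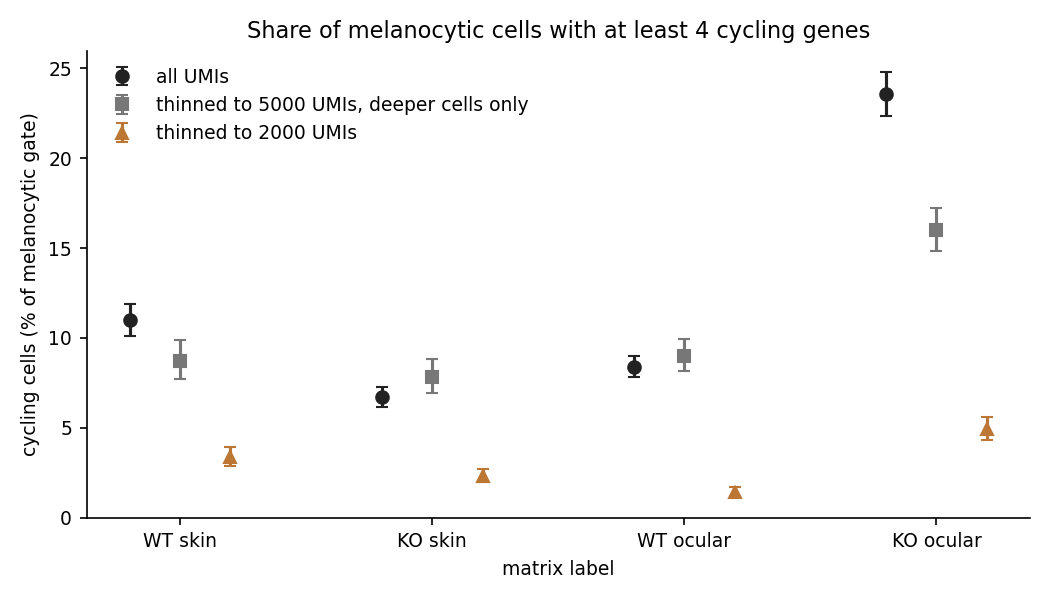
Share of gated melanocytic cells with at least 4 cycling genes, in percent, by matrix label. Points are 1 matrix each and bars are exact 95% binomial intervals. KO ocular was the highest at all 3 depths, and its 23.6% at full depth became 4.92% at 2000 UMIs.

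Within each matrix the share climbed with the UMIs of the cell. In cells of 2000 to 4000 UMIs it was 5.26% in KO ocular, 3.56% in WT skin, 2.00% in WT ocular and 1.42% in KO skin. In cells of 16000 UMIs or more it was 42.4% in KO ocular, 27.5% in WT skin, 42.6% in WT ocular and 25.8% in KO skin. In that highest bin the intervals of WT ocular (37.2 to 48.2%) and KO ocular (39.7 to 45.1%) overlapped, which they did not among the shallowest cells. More RNA per cell and better detection of the 4 genes cannot be told apart in these bins. The median depth of cycling cells was 16920 UMIs in KO ocular, 11280 in WT skin, 10620 in WT ocular and 8318 in KO skin, against 6851, 4539, 4175 and 4061 in reference cells.

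Other cells of the tumours gave a background of the call, since neutrophils and rods do not divide. All of these other cells were chosen with fewer than 5 of the 9 pigment-cell genes detected, so barcodes with much melanocyte RNA were left out. The background among barcodes that pass the melanocytic gate was therefore not measured. Of neutrophils, 0 of 17 in WT skin and 0 of 12 in KO skin were called cycling, which allow shares of up to 17.65% and 25% by a limit of 3 counts, and exact intervals reach 19.5% and 26.5%. In WT ocular 1 of 222 was (0.450%, 0.0114 to 2.48%, median 2662 UMIs), and in KO ocular 1 of 237 (0.422%, 0.0107 to 2.33%, median 2466 UMIs). Rods of WT ocular had 4 of 427 (0.937%, median 2505 UMIs). At 2000 UMIs the neutrophils had 0 in both ocular matrices, with exact intervals up to 1.65% in WT ocular and 1.54% in KO ocular. The rods of WT ocular had 0.234% (up to 1.30%). Melanocytic cells had 1.44% (1.20 to 1.71%) in WT ocular and 4.92% (4.32 to 5.58%) in KO ocular. The intervals of neutrophils and rods thus overlapped that of melanocytic cells in WT ocular, and that of neutrophils did not in KO ocular. Macrophages had 4.57% (10 of 219) in WT skin and 1.14% (2 of 175), 2.52% (6 of 238) and 3.08% (4 of 130) in KO skin, WT ocular and KO ocular. In WT ocular, endothelial cells had 13.8% (22 of 159) and fibroblasts 7.60% (25 of 329), so cells of other types were called cycling there too.

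Values given as 4 in a row below follow the order of the matrices in the first shares above, skin before ocular and WT before KO. The 5 markers of the cycling class are all among the 8 genes of the rule, so their detection does not check the label and their levels are a description. Mki67, which coats mitotic chromosomes, stood at 631 CPM (its UMIs per 1000000 UMIs of the cells summed; exact Poisson 95% interval 614 to 648) in WT skin, 379 (365 to 393) in KO skin, 91.0 (84.5 to 97.8) in WT ocular and 535 (527 to 544) in KO ocular. The order among the 3 matrices of one assay was WT skin, KO ocular, KO skin. Cdk1, the mitotic kinase, stood at 262, 274, 247 and 284 CPM. Top2a, which untangles sister chromatids, stood at 213, 275, 156 and 205 CPM, and Cenpf, a kinetochore protein, at 187, 194, 140 and 78.3 CPM. Birc5, of the chromosomal passenger complex, stood at 103, 184, 405 and 122 CPM, and its kinase partner Aurkb at 30, 76.6, 51.9 and 41.9 CPM. Both passenger genes were lowest in WT skin. Ccna2, the cyclin of S phase and G2, stood at 293, 227, 154 and 386 CPM. Ccnb1, the mitotic cyclin, stood at 88.02 CPM in WT ocular. In reference cells all of these are 0 by construction. In neutrophils of WT ocular the 8 genes were each detected in 1.80 to 18.9% of cells, the most for Birc5 (10.8% of rods), against 96.1% of the cycling cells there. The median depth was 2662 UMIs in those neutrophils, 2505 in the rods and 10620 in the cycling cells.

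Taken as sets, pigment-cell genes stood at like levels in cycling and reference cells, both of which the gate chose by such genes. The 9 gate genes took a median of 5.78% of a cycling cell's UMIs in WT skin, 3.45% in KO skin, 1.06% in WT ocular and 4.76% in KO ocular. Reference cells had 5.36, 3.82, 1.03 and 4.68%, and neutrophils 0.165, 0.181, 0.232 and 0.0891%. None of the 9 gate genes was 2-fold higher or lower in cycling cells of any matrix. Single genes differed by less than that. Oca2 stood at 670 against 683 CPM, 477 against 892, 150.5 against 220 and 734 against 1113 CPM. Slc45a2 went the other way in WT skin, at 5281 against 3834 CPM. Among pigmentation genes that the gate did not use, 0 were higher in any matrix and at most 1 of 18 or 19 counted was lower, with medians of −0.05, −0.16, −0.16 and −0.04 on the log2 scale. Myo5a, the motor that carries melanosomes, was at 916 against 1145 CPM in WT skin and 1022 against 1175 CPM in KO ocular. Tfap2a, a transcription factor of the melanocyte lineage, differed by −0.45 (WT skin), −0.30, −0.05 and −0.19.

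Detection of the 8 genes was graded and had no gap at the threshold. Just outside it, 273, 159, 524 and 329 cells had 3 genes detected, and just inside it 171, 116, 275 and 277 had 4. The summed level of the 36 S phase genes was 1715 and 2747 CPM in WT skin at 3 and at 4 genes, 1690 and 2533 in KO skin, 1132 and 1326 in WT ocular, and 2314 and 2573 in KO ocular. The 70 G2/M genes, none of them among the 8, stood at 1960 and 3457, 2479 and 4097, 3320 and 4477, and 2261 and 2765 CPM. In WT ocular and KO ocular the cells on either side of the threshold were thus closer to each other than in the skin matrices. The G2/M sum kept climbing to 10420, 11870, 7903 and 9872 CPM at 7 genes. The S phase sum had nearly stopped climbing from 5 genes on in KO skin, at 3024 and then 3187 CPM at 7 genes.

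**Figure D2:**
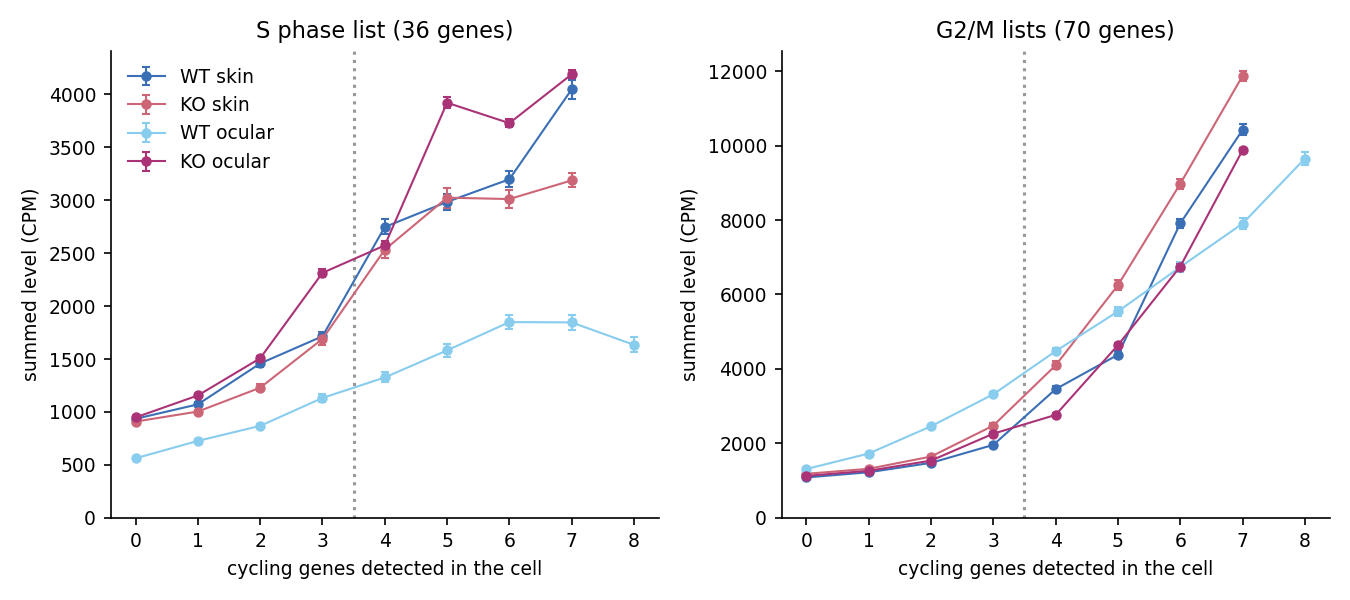
Summed level in CPM of the S phase list (left) and the G2/M lists (right) in gated cells, by the number of cycling genes detected. Points are 1 matrix each, bars are exact 95% Poisson intervals and the dotted line is the threshold of the rule. The G2/M sum in KO skin went from 1183 CPM at 0 genes to 11870 CPM at 7 genes, and the S phase sum in WT ocular did not pass 1849 CPM.

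Cycling cells were higher than reference cells in a compact programme of replication and mitosis that was shared by the 4 matrices. Ratios are log2 of CPM plus a pseudocount of 1 CPM, which understates the difference of genes at low levels, and a gene was counted where its mean level was at least 10 CPM with at least 20 UMIs. At least 2-fold higher were 366 of 9219 genes (3.97%) in WT skin, 366 of 9197 (3.98%) in KO skin, 252 of 7872 (3.2%) in WT ocular and 367 of 9129 (4.02%) in KO ocular. Of the 6786 genes counted in all 4, 192 (2.83%) were at least 2-fold higher in each. Of those 192, 108 belonged to the cell cycle lists or the rule and 81 to no list. The 108 include genes of the rule, which are at 0 in reference cells by construction. The lists were written with earlier results of these data known. How many of the 6786 genes belong to them is not given here, so the 108 have no share over all genes beside them. The median over all counted genes was −0.03, −0.07, −0.04 and −0.01.

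**Figure D3:**
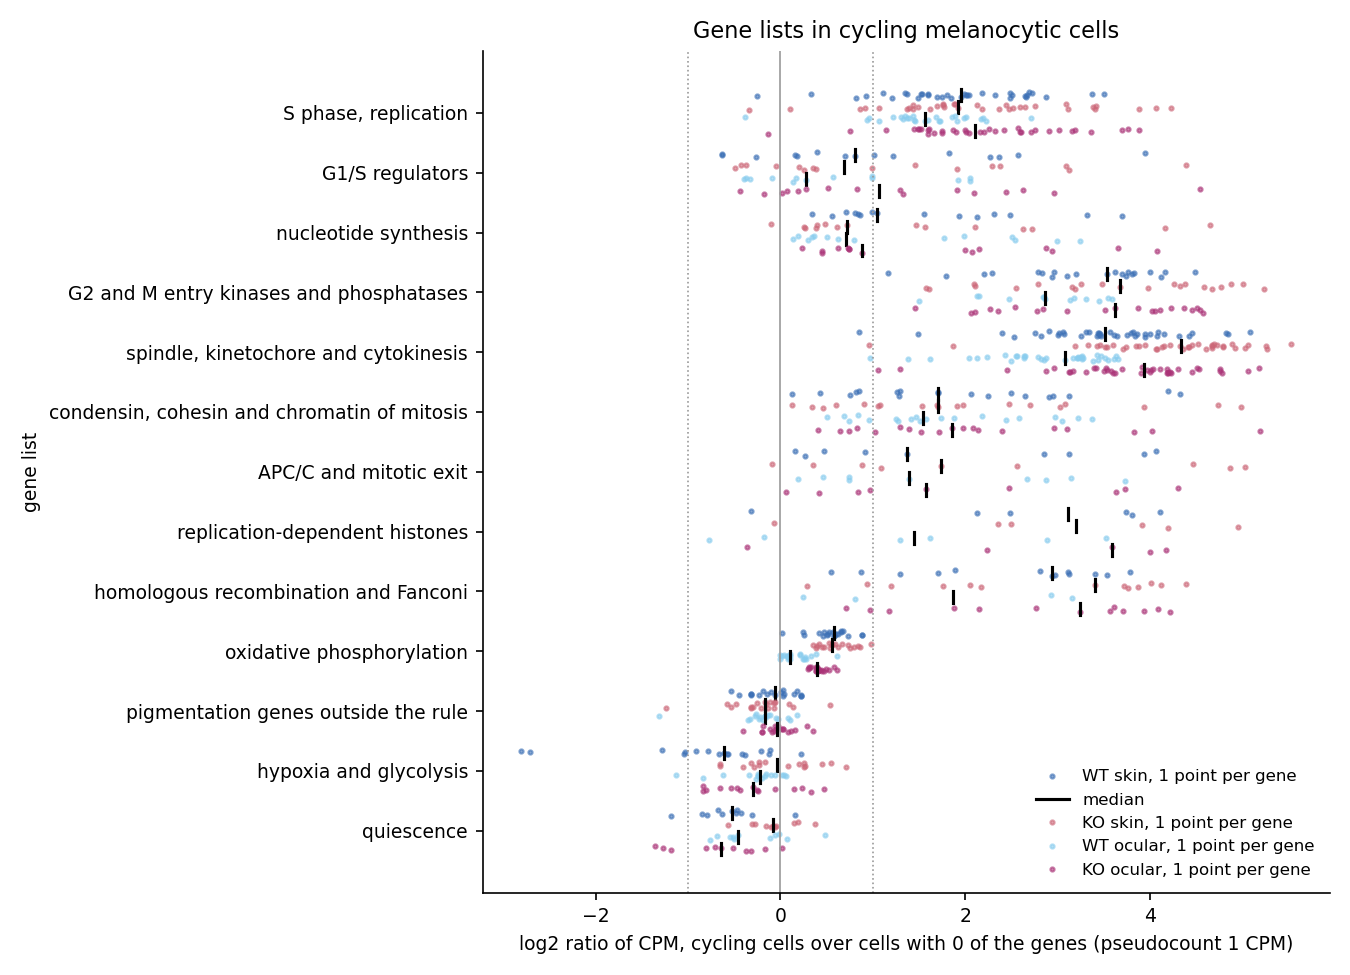
Log2 ratio of CPM of cycling over reference cells for gene lists, by matrix label. Each point is 1 counted gene, the black stroke is the median of the list and dotted lines mark 2-fold. Medians of the kinase and spindle lists lay between 2.86 and 4.34, and those of the pigmentation list between −0.16 and −0.04.

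Genes of the S phase list, which license, prime and copy DNA, were higher by medians of 1.959 (31 of 35 counted at least 2-fold higher), 1.93 (31 of 35), 1.57 (24 of 27) and 2.10 (34 of 36). Lig1, the ligase that seals Okazaki fragments, was higher by 2.66, 2.45, 2.22 and 2.58. Prim1, the primase subunit that starts each fragment, was higher by 2.67 to 3.15 except in WT ocular, at 2.19. The S phase genes were thus above the reference cells by similar amounts in the 3 matrices of one assay.

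Upstream of replication fewer genes reached 2-fold. Of the G1/S regulators, 7 of 15, 7 of 16, 3 of 13 and 8 of 16 were at least 2-fold higher, with medians of 0.81, 0.69, 0.28 and 1.06. Ccne1, the cyclin that opens S phase, stood at 41.7 against 6.19 CPM, 55.4 against 10.5, 30.7 against 6.63 and 92.8 against 16.3 CPM. Its level in cycling cells was highest in KO ocular, as was its level in the reference cells among the 3 matrices of one assay. Rbl1 was higher by 2.37, 3.12, 2.05 and 2.97, and E2f8, a repressor that ends E2F transcription, by 1.82, 1.92, 1.92 and 2.10. In the nucleotide synthesis list 8 of 15, 7 of 15, 6 of 14 and 7 of 15 were at least 2-fold higher. Its leading members were Tk1 (thymidine kinase; 3.70, 4.65, 3.25 and 4.08), Rrm2 (the S phase subunit of ribonucleotide reductase; 3.32, 4.16, 3.00 and 3.65) and Tyms (thymidylate synthase; 2.49, 2.62, 2.54 and 2.94).

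Genes of mitotic entry and of the spindle had larger medians than the S phase list in each matrix, and those of mitotic chromatin and of mitotic exit did not. Most of the genes of the rule are themselves of G2 or mitosis, so the order of these medians is partly set by the choice of cells. All counted members of the list of G2 and M entry kinases and phosphatases were at least 2-fold higher: 21 of 21 in WT skin, KO skin and KO ocular, and 13 of 13 in WT ocular. The medians were 3.54, 3.68, 2.86 and 3.62. Tpx2, which activates Aurora A on the spindle, stood at 172 against 8.65 CPM in WT skin, 207 against 6.07 in KO skin, 107 against 7.98 in WT ocular and 134 against 4.94 in KO ocular. Bub1, a checkpoint kinase, was higher by 4.49, 5.01, 3.45 and 4.37, and Pbk, a mitotic kinase, by 4.12, 4.59, 3.55 and 4.57.

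Of the spindle, kinetochore and cytokinesis genes, 39 of 40, 39 of 40, 34 of 35 and 40 of 40 were at least 2-fold higher, by medians of 3.52, 4.34, 3.09 and 3.94. Hmmr, a spindle-pole protein, stood at 126, 124, 35.8 and 78.9 CPM in cycling cells, against 1.90 to 2.82 CPM in reference cells. Knl1, a scaffold of the outer kinetochore, was higher by 4.82, 5.26, 3.63 and 5.06, and Prc1, which bundles microtubules between the separating chromosomes, by 4.16, 5.07, 3.62 and 4.20. In the list of condensin, cohesin and mitotic chromatin, 14 of 19, 14 of 19, 15 of 20 and 15 of 19 were at least 2-fold higher, with medians of 1.71, 1.71, 1.54 and 1.86, led by the condensin subunits Ncapg (4.32, 4.98, 3.37 and 5.19) and Smc2 (2.95, 3.02, 3.04 and 3.10) and by the cohesin acetyltransferase Esco2 (4.20, 4.74, 3.23 and 4.02).

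The list of the anaphase-promoting complex and mitotic exit was mixed, with 5, 6, 5 and 5 of 9 members at least 2-fold higher and medians of 1.37, 1.74, 1.39 and 1.58. Ube2c, the ubiquitin-conjugating enzyme of the complex, stood at 180, 350, 556 and 216 CPM in cycling cells and at 10.8, 9.76, 41.1 and 16.5 CPM in reference cells. Its coactivator Cdc20 was higher by 4.06, 4.86, 3.15 and 4.31, and Fbxo5, which inhibits the complex before mitosis, by 2.86, 2.56, 2.87 and 3.73. Ube2c and Cdc20 were both highest over the reference cells in KO skin.

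Few histone genes could be counted, 5 or 6 of 12 per matrix, and 5, 5, 4 and 4 of them were at least 2-fold higher, with medians of 3.11, 3.20, 1.45 and 3.59. Hist1h1b, a linker histone, stood at 214 against 15.1 CPM, 224 against 11.3, 84.1 against 6.38 and 259 against 13.4 CPM. Hist1h2ae, which encodes an H2A protein nearly identical to that of its neighbours, was higher by 4.11, 3.91, 2.89 and 3.59, and Hist1h2ap, outside the lists, by 4.07, 4.16, 3.68 and 4.00. Reads of such near-identical genes can be shared among copies, so both values are uncertain. In the homologous recombination and Fanconi list 11 of 13 were at least 2-fold higher in each matrix but WT ocular, where 2 of the 4 counted were, and the medians were 2.94, 3.41, 1.87 and 3.25. Rad51ap1, a cofactor of strand pairing, was higher by 3.79, 3.87, 3.15 and 3.71, Fancd2, the ubiquitinated centre of the Fanconi pathway, by 3.54, 4.12, 2.93 and 4.09, and Rbbp8, which starts end resection, by 0.87, 0.93, 0.80 and 0.97.

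Genes outside all lists also had large ratios in each of the 4 matrices. Aspm, a spindle-pole protein, was higher by 4.36, 4.90, 3.54 and 5.22. The kinesin Kif15 was higher by 3.90, 4.89, 2.99 and 4.29, and Neil3, a DNA glycosylase that unhooks crosslinks at replication forks, by 4.82, 4.81, 3.31 and 4.78. Iqgap3 stood at 77.2 CPM in cycling cells of WT skin, 195 in KO skin, 21.2 in WT ocular and 97.9 in KO ocular, and Pimreg at 36.9, 130, 38.0 and 64.5 CPM. Both were highest in KO skin. Fam83d, Shcbp1 and Depdc1a had ratios of 3.22 to 4.53.

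Of the list of CDK inhibitors and p53 targets, 2 genes were at least 2-fold higher in each matrix, of 12 to 17 counted, with medians of 0.07, 0.16, 0.04 and −0.02. At least 2-fold lower were Cdkn1a, the p21 inhibitor, in WT skin (−1.19), and the growth arrest genes Btg2 (−2.26) and Gadd45a (−1.32) in KO ocular, named after their values were seen. The 2 higher genes were both INK4 inhibitors. Cdkn2c, which holds back CDK4 and CDK6, stood at 87.5 against 18.9 CPM in WT skin, 92.0 against 13.6 in KO skin, 40.9 against 16.8 in WT ocular and 90.4 against 13.0 in KO ocular. Its relative Cdkn2d was higher by 1.51, 1.93, 1.85 and 1.58. Both were above the reference cells in all 4 matrices. The Polycomb methyltransferase Ezh2 stood at 155 against 54.6, 137 against 58.3, 118 against 53.1 and 141 against 52.5 CPM, and was the 1 Polycomb gene at least 2-fold higher in each matrix. Its partner Jarid2 differed by −0.86, −0.98, −0.64 and −1.20.

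Metabolic lists differed less. No gene of oxidative phosphorylation reached 2-fold, with medians of 0.58, 0.56, 0.10 and 0.40, and Cox5a, a subunit of cytochrome oxidase, was at 0.88, 0.98, 0.39 and 0.61 and Cox7a2 at 0.58, 0.80, 0.26 and 0.58. Cholesterol synthesis had medians of 0.24, 0.53, 0.30 and 0.38 and no gene past 2-fold. The isomerase Idi1 was at 0.55, 0.82, 0.36 and 0.54. Ribosome synthesis genes had medians of 0.45, 0.27, 0.22 and 0.37, with Nop58, of the nucleolar methylation complex, at 0.80, 0.45, 0.68 and 0.62 and the spermidine synthase Srm at 0.80, 0.43, 0.32 and 0.59.

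Genes lower in cycling cells were far less shared than the higher ones. At least 2-fold lower were 337 of 9219 genes (3.66%) in WT skin, 170 of 9197 (1.85%) in KO skin, 132 of 7872 (1.68%) in WT ocular and 393 of 9129 (4.3%) in KO ocular, and 0 of 6786 (0.0%) were so in all 4. When reference cells were weighted to the UMI depths of the cycling cells, 174, 27, 17 and 450 genes were lower by 2-fold, in place of 337, 170, 132 and 393. The counts of higher genes then were 451, 415, 264 and 483. Kdm5b, a histone H3 lysine 4 demethylase, stood at 24.1 against 58.8 CPM, 42.3 against 75.9, 14.8 against 26.6 and 29.9 against 75.2 CPM. It was lower in all 4 matrices, by −1.25, −0.83, −0.80 and −1.30, and at equal depth by −1.04, −0.48, −0.75 and −1.25. Ypel3, a small protein linked to growth arrest, differed by −1.43, −0.96, −0.88 and −0.98, and Tcp11l2 by −1.44, −0.79, −0.83 and −1.01. Ypel2, Kdm7a, Efcab1 and Phyhd1 ranged from −1.21 to −0.76. Ogt, the O-GlcNAc transferase that works with BAP1, stood at 91.1 against 178 CPM in WT skin, 173 against 480 in KO skin, 38.3 against 50.3 in WT ocular and 90.8 against 185 in KO ocular, a difference of −0.96, −1.47, −0.38 and −1.02 that was −0.22, −0.75, −0.36 and −0.38 at equal depth. Mbd5 differed by −0.69, −0.66, −0.36 and −0.48.

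Quiescence and hypoxia lists differed between matrices. Quiescence genes had medians of −0.53, −0.08, −0.45 and −0.64, with Foxo3, a forkhead factor active when growth signals are low, at −0.63, −0.57, −0.45 and −0.64 and Klf2 at −1.18, −0.27, −0.51 and −1.19. Hypoxia and glycolysis genes had medians of −0.61, −0.04, −0.22 and −0.29, with 5 of 17 at least 2-fold lower in WT skin. Ndrg1, a hypoxia-induced gene, stood at 258 against 485, 150 against 237, 19.9 against 44.7 and 38.5 against 69.4 CPM, and Ankrd37 was at −1.04, −0.66, −0.84 and −0.81. Immediate early genes had medians of −0.71, 0.15, −0.25 and −0.70, with Dusp1 at −1.19, 0.30, −0.33 and −2.58 and Zfp36 at −1.08, 0.06, −0.70 and −1.66. Among the matrices of one assay, WT skin and KO ocular had the lowest medians here, and their reference cells had more neutrophil RNA than those of KO skin (471 and 1242 against 118 CPM). Its part in the result was not tested.

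In signalling and stress lists some genes were at least 2-fold lower in cycling cells, as were 3.66, 1.85, 1.68 and 4.3% of all counted genes. Of interferon-stimulated genes 0 of 10, 0 of 5, 1 of 4 and 3 of 8 were, with medians of −0.30, 0.13, −0.44 and −0.37. Of genes of MAPK feedback 0 of 12, 0 of 11, 0 of 7 and 1 of 10 were, with medians of −0.05, 0.23, 0.02 and −0.04. Of the unfolded protein response, by which cells answer misfolded protein, 0 of 12, 0 of 12, 0 of 11 and 2 of 13 were, with medians of 0.18, 0.20, −0.27 and −0.43. The list of matrix and epithelial-mesenchymal transition had 4 of 15, 1 of 14, 0 of 15 and 5 of 14 lower, with medians of −0.58, −0.05, −0.25 and −0.65, so it was low in both WT skin and KO ocular. Irf1, a transcription factor of interferon responses, stood at 15 against 71.5 CPM in KO ocular. In WT skin, KO skin and WT ocular Irf1 stood at 21.1 against 26.6, 26.9 against 29.4 and 8.999 against 12.9 CPM. Dusp5, a phosphatase induced by ERK, was at −0.85, −0.06, −0.59 and −1.71, and Herpud1, of the unfolded protein response, at −0.24, −0.33, −0.35 and −1.43. Of matrix genes, Timp3, an inhibitor of metalloproteinases, was at −0.84, −0.98, −0.74 and −1.71, and Tnc, the matrix protein tenascin C, at 84.8 against 232, 16.1 against 15.9, 66.5 against 73.1 and 30.5 against 88.8 CPM. Timp3 was below the reference cells in all 4 matrices and Tnc was not in KO skin.

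Of 48 sums of marker lists of other cell types, 12 lists in each matrix, 38 were lower in cycling than in reference cells, and their part in the lower genes was not tested. The neutrophil list summed to 159 against 471 CPM in WT skin, 91.6 against 118 in KO skin, 314 against 595 in WT ocular and 121 against 1242 in KO ocular. S100a9 was its leading gene, at 83.8 against 245 CPM in WT skin and 51.7 against 575 in KO ocular. The macrophage list summed to 271 against 545, 180 against 287, 168 against 337 and 140 against 305 CPM, with none of its genes at 0. B cell genes of WT skin were at 6.27 against 276 CPM, and keratinocyte genes of KO ocular at 24.7 against 166 CPM. Erythroid genes were at 140 against 202, 234 against 443, 4663 against 13640 and 2974 against 14750 CPM. Fibroblast genes were at 1640 against 3638 CPM in WT skin, where 7 of 8 were at least 2-fold lower (median −1.70), and at 607 against 611 CPM in WT ocular. They went the other way in KO skin, at 1996 against 1401 CPM (median 0.37), with Fbln1 at 417 against 192 CPM, and were at 919 against 898 CPM in KO ocular. Genes that are also high in such cells stood among the lower ones, such as Ctss (−1.75, −1.06, −0.95 and −0.88) and Ccl6 (−2.39, −0.92, −0.72 and −1.43). So did the class I genes H2-K1 (−1.96, −0.78, −0.95 and −2.50) and H2-D1 (−0.77, −0.74, −0.71 and −1.78). The whole class I presentation list differed little, with medians of −0.11, −0.01, −0.21 and −0.13. Of its counted genes 2 of 11, 0 of 8, 0 of 7 and 2 of 8 were at least 2-fold lower. Without gated cells that had at least 3 markers of 1 other type, 122 genes were 2-fold lower in KO ocular in place of 393, whereas the number of lower genes was 376 in WT skin in place of 337, 174 in KO skin in place of 170 and 179 in WT ocular in place of 132. The higher genes then numbered 527, 468, 304 and 464.

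In WT ocular 52.5% of cycling cells and 50.3% of reference cells had at least 3 rod markers, and the rod list summed to 437 and 847 CPM, so rod transcripts were in both classes. At least 3 markers of some other type were found in 63.0, 36.3, 84.4 and 63.5% of cycling cells and in 36.7, 14.7, 80.7 and 44.1% of reference cells. Depth was greater in cycling cells, and its part in that count was not tested.

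**Figure D4:**
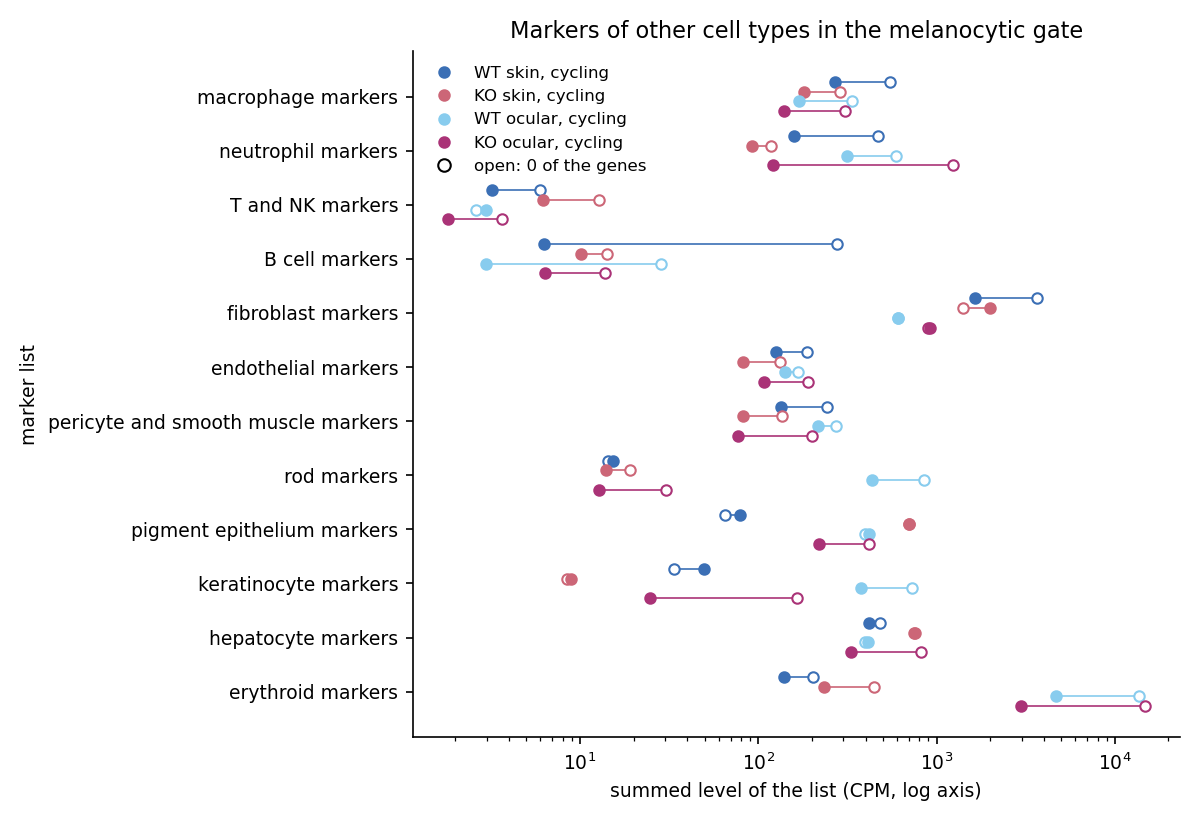
Summed level of marker lists of other cell types in gated cells, in CPM on a log axis, by matrix label. Filled points are cycling cells, open points are reference cells and lines join the same matrix. In KO ocular the neutrophil list was at 121 CPM in cycling and 1242 CPM in reference cells.

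Cycling cells were not all of one phase lean. Each was thinned to 2000 UMIs and the share of the S phase list detected was set beside the share of the G2/M lists, neither of which holds any of the 8 genes. G2/M-leaning cells made up 55.2% (50.8 to 59.5%) in WT skin, 65.9% (61.6 to 70.1%) in KO skin, 76.5% (73.3 to 79.5%) in WT ocular and 49.4% (46.4 to 52.4%) in KO ocular, and the remainder leaned to S. Among the 3 matrices of one assay KO skin leaned most to G2/M and KO ocular least, and their intervals did not overlap. Cells called cycling at only 2000 UMIs leaned more to G2/M, at 75.3, 80.9, 86.5 and 69.1%, in the same order of matrices. Reference cells gave 39.6, 39.7, 63.1 and 38.9%, so WT ocular was high in both classes. Most of the 8 genes of the rule act in G2 or mitosis, so the rule favours cells with G2/M transcripts and partly sets this lean. Depth at the call and the assay also move with this value, and the lean is not a phase call.

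Bap1 itself was examined before any contrast by genotype. In cycling cells it stood at 47.6 CPM (43.0 to 52.6) in the matrix labelled WT skin, 40.9 (36.4 to 45.8) in KO skin, 4.56 (3.21 to 6.29) in WT ocular and 32.4 (30.4 to 34.5) in KO ocular. Reference cells had 37.4, 53.8, 5.72 and 36.2 CPM. Bap1 was therefore not lower in KO skin than in WT skin across both classes. Where in Bap1 the counted tags lie, and where the edit, is not known here, so this level does not check the label, and directions below are those of the matrices so labelled.

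Cycling cells of the matrix labelled KO skin differed from those of WT skin in many genes, and the cell cycle genes were not prominent among them. At least 2-fold higher in KO skin were 941 of 9185 genes (10.2%) and lower 586 (6.38%). The median of all genes was 0.17, and once it was set to 0 the counts were 629 higher and 814 lower, so the larger number of higher genes reversed. Reference cells had 1249 higher (13.4% of 9296) and 839 lower (9.03%). Of the 8867 genes counted in both classes, 905 were higher in cycling cells, 681 of them also in reference cells, and 565 were lower, 454 of them also in reference cells. Of 182 cell cycle genes 8 were higher and 2 lower, with a median of 0.24, near that of all genes. The 182 include 7 genes of the rule, of which 1, Aurkb, was among the higher ones. Cells of both matrices were chosen by detection of these genes, so likeness in cell cycle genes is partly set by the rule.

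The 8 cell cycle genes, named after their values were seen, were Aurkb (76.6 against 30 CPM, 1.32), Cenpa, Psrc1, Ccnf, Nusap1, Stmn1, Cdc25b and the histone variant gene H2afx (899 against 390 CPM, 1.20). Cenpa, the centromeric histone, stood at 170 CPM in KO skin, 58.5 in WT skin and 78.4 in KO ocular. Psrc1, a spindle protein, stood at 69.8, 26.2 and 26.0 CPM, and Ccnf, a cyclin that forms a ubiquitin ligase, at 99.2, 47.2 and 48.8 CPM. KO skin was thus the highest of the 3 in each of these genes. Nusap1, a microtubule bundler, Stmn1, which destabilises microtubules, and Cdc25b, the phosphatase that activates CDK1, were higher in KO skin than in WT skin by 1.18, 1.08 and 1.24. Of the 2 lower genes, Brca2, of homologous recombination, differed by −1.08. KO skin was also the matrix with the larger G2/M lean of the 2.

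The largest differences between the skin matrices were not of the cell cycle. Mrgprb1, a receptor of the Mas-related family, stood at 387 CPM (373 to 402) in cycling cells of KO skin and 1.11 CPM (0.506 to 2.10) in WT skin, and its relative Mrgprx2 at 175 and 0.615 CPM. In reference cells Mrgprb1 was at 509 and 0.597 CPM, so the difference held in both classes. Mcoln3, a lysosomal and melanosomal channel, was at 102 and 0.984 CPM, Pvalb, a calcium buffer, at 229 and 4.67 CPM and Rhox5, a homeobox gene of the X chromosome, at 35 and 0.246 CPM (2 UMIs). Sez6l was at 49.3 CPM in KO skin and at 0 UMIs in WT skin, and Myo16 at 46.1 and 0.123 CPM (1 UMI). Cxcl5, a neutrophil chemokine, was at 35.95 and 0.492 CPM (4 UMIs) in cycling cells but at 2.78 and 5.44 CPM in reference cells. Lower in KO skin were C4b, a complement gene (31.7 and 908 CPM), Gpr37 (1.38 and 78.4 CPM), Csf2rb, a cytokine receptor chain (6.61 and 211 CPM), Stra6, a retinol transporter (4.55 and 149 CPM), and Serpine2, a protease inhibitor (10.3 and 286 CPM). Cpne4, Slc16a7 and Qpct were lower by −5.37, −4.76 and −4.52.

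Of the 16 CDK inhibitors and p53 targets counted, 3 were at least 2-fold higher in cycling cells of KO skin than of WT skin and 0 lower (median 0.51), beside 10.2% of all genes higher. In reference cells 3 were higher and 1 lower (median 0.44). Cdkn1a stood at 133 CPM in cycling cells of KO skin, 47.6 in WT skin and 50.6 in KO ocular, and its ratio of KO over WT skin was 1.46 in cycling and −0.25 in reference cells. Cdkn2a, the INK4a and ARF locus, was at 272 and 95.03 CPM, and Bbc3, a p53 target that promotes apoptosis, at 54.8 and 6.88 CPM in the 2 skin matrices. Cdkn1a, Cdkn2a and Bbc3 were the 3 higher in cycling cells. Of the pigment-cell gate genes Tyr (850 and 2331 CPM) and Slc45a2 (1782 and 5281 CPM) were lower in KO skin, and the median of the 9 was −0.77 in cycling and −0.61 in reference cells. Class I presentation genes had a median of −0.91 with 3 of 9 lower, B2m among them at 233 and 558 CPM. In reference cells their median was −0.965 with 5 of 11 lower, so the difference was not confined to cycling cells.

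Cycling cells of the matrix labelled KO ocular against KO skin, the contrast of site within one label, had 352 of 9032 genes at least 2-fold higher (3.9%) and 479 lower (5.3%). Reference cells had 589 of 9224 higher (6.39%) and 685 lower (7.43%). This contrast shares the KO skin matrix with the one before. The median of all genes was −0.12, and with it set to 0 the counts were 489 higher and 324 lower. Of the 8711 genes counted in both classes, 341 were higher in cycling cells, 243 of them also in reference cells, and 461 were lower, 327 of them also in reference cells. Of 182 cell cycle genes, which again include 7 genes of the rule, 1 was higher and 5 were lower. Cenpf, among the lower genes, is 1 of those 7. The 1 higher gene was Cks1b, a CDK-binding subunit, at 58.1 and 23.3 CPM, 1.29 on the log2 scale. The lower genes were Cenpf (78.3 and 194 CPM), Cenpa, Psrc1, Ccnf and Hist1h2ae (92.3 and 202 CPM). These were named after their values were seen.

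Cholesterol synthesis genes were higher in KO ocular. The 15 genes summed to 7484 CPM in cycling cells of KO ocular, 3497 in KO skin and 3349 in WT skin, and 7 of 15 were at least 2-fold higher in KO ocular than in KO skin (median 0.98). Insig1, a sterol sensor, was at 1787 and 549 CPM, Sqle, the squalene epoxidase, at 841 and 308 CPM and Idi1 at 101 and 33.6 CPM. Reference cells had 10 of 15 higher (median 1.13), so the difference was not confined to cycling cells. Hypoxia and glycolysis genes went the other way, with 7 of 16 lower, 1 higher and a median of −0.91 in cycling and −0.81 in reference cells. Adm, a hypoxia-induced peptide, was at 2.81 and 25.9 CPM, Ldha at 356 and 925 CPM and Ndrg1 at 38.5 and 150 CPM, whereas Pgk1 was at 430 and 166 CPM.

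The genes with the largest ratios of KO ocular over KO skin included erythroid and epithelial genes. Hbb-bs stood at 1578 and 52.2 CPM and Hbb-bt at 504 and 9.09 CPM in cycling cells, and at 8124 and 162 CPM and 2693 and 29.7 CPM in reference cells. Muc4, Plet1 and Prss22, genes of surface epithelium, were at 36.9, 25.7 and 24.1 CPM in cycling cells of KO ocular and at 1135, 369 and 254 CPM in reference cells, so they were lower in the cycling class. Bpifa2, a secreted salivary protein, was at 31.7 CPM in cycling and 0.271 CPM in reference cells of KO ocular. The collagenase Mmp13 was at 48.7 and 2.07 CPM in cycling cells of KO ocular and KO skin and at 25.3 and 6.58 CPM in reference cells. Klra17 was at 26.9 and 0.551 CPM. Ptx3, a secreted pattern receptor, was the lowest, at 0.201 CPM in KO ocular and 31.5 CPM in KO skin, and the order was the opposite in reference cells, at 19.8 and 6.15 CPM. Angptl4, Cd74, Kcnt1, Nr1i2, Per2 and Acrbp were lower by −2.69 to −2.26. In reference cells Angptl4 went the other way, at 15.3 CPM in KO ocular and 10.5 CPM in KO skin, and the others were lower there too.

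**Figure D5:**
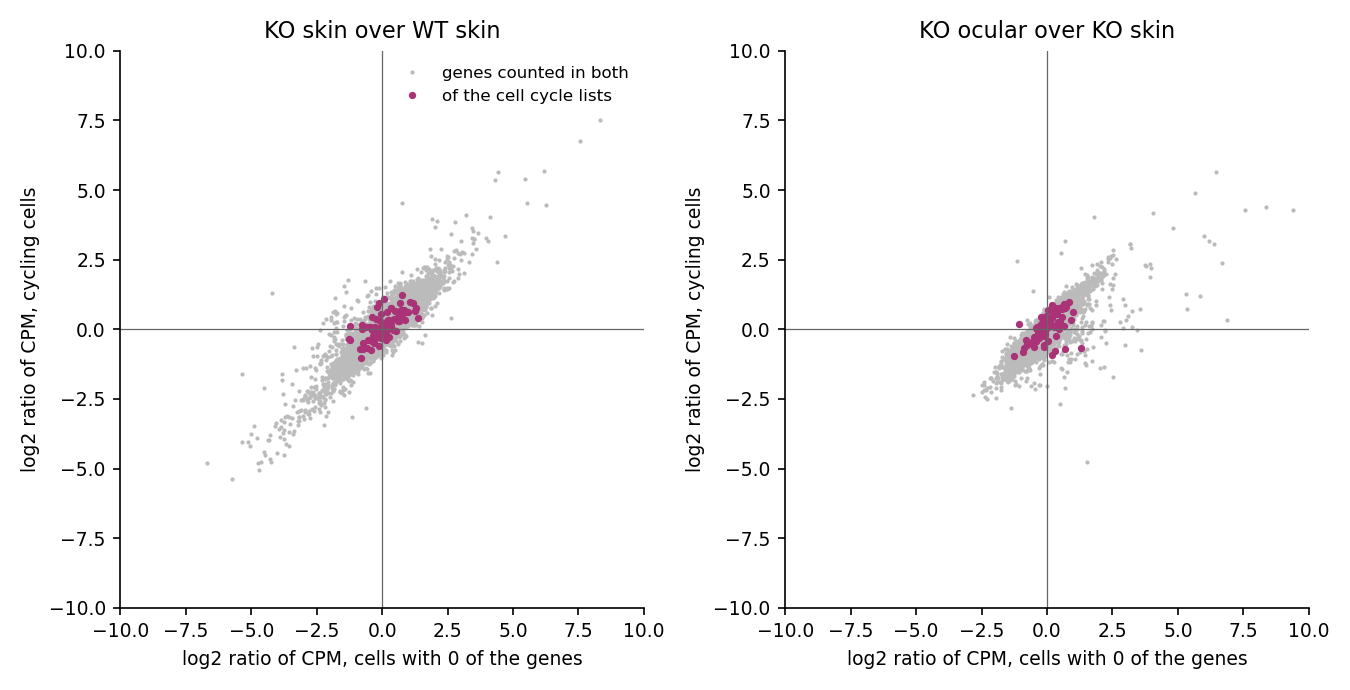
Log2 ratio of CPM between matrices in cycling cells (vertical axis) and in reference cells (horizontal axis), for genes counted in both classes. Each point is 1 gene and colour marks the cell cycle lists. KO skin over WT skin is on the left, where Mrgprb1 lies at 7.52 and 8.32, and KO ocular over KO skin is on the right, where Muc4 lies at 4.27 and 9.41.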

How the data were processed

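Tumour cell suspensions were deposited as 4 matrices of raw UMI counts per gene and barcode under 1 of the 19 samples of the series. They were written by Cell Ranger 8.0.0, and 7.0.0 for WT ocular, per the file headers. Of genome builds, the submitters' processing notes list GRCm38 and mm10. Per the labels' protocols the tissue was fresh or fixed and a workflow for fixed tissue was followed, while the sample's description gives a 3′ kit. No normalization of the deposited counts is recorded there. The members, the 39 gene lists and the alternatives were chosen with earlier results of these data known. List symbols were matched by symbol or by a unique RefSeq synonym. UMIs were summed over cells and scaled to CPM. A pseudocount of 1 CPM, a mean of at least 10 CPM and at least 20 UMIs were used. Intervals are exact Poisson or Clopper-Pearson at 95%. Cells were thinned without replacement. No significance test was run, since each name has 1 matrix. Doublet scores came from Scrublet in scanpy 1.11.5, and the 5% of gated cells with the highest scores were left out only as an alternative, since a cut for doublets was not set. The rule named the 8 cycling genes, the 3 members of each cell cycle list with the largest lowest ratio, the 2 of every other list with the largest absolute mean ratio, 10 genes each way outside the lists, 8 each way between matrices, and Bap1. Some genes that this rule names are not reported here. The calculation of ratios was checked on simulated counts, from which no value is given. Python 3.11.15, numpy 2.4.6 and scipy 1.17.1 were used.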

Additional observations from a re-analysis of the deposited data

Results flagged for a closer look

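Among the 8693 genes counted in both skin matrices, Creb3l1, Sod3, Cxcl2 and Cd248 went opposite ways. They were at least 2-fold higher in cycling than in reference cells of KO skin and at least 2-fold lower in WT skin. The difference between the matrices was not tested. The log2 ratio of cycling over reference cells in KO skin minus that in WT skin was 2.92 for Creb3l1 (1.91 and −1.01), a transcription factor of collagen secretion. It was 3.06 for Sod3, the extracellular superoxide dismutase (30.6 against 11.8 CPM in KO skin and 8.36 against 30.8 CPM in WT skin). For the chemokine Cxcl2 it was 3.76 (25.9 against 5.96 CPM and 80.9 against 286 CPM), and for the stromal gene Cd248 it was 2.72.

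Between KO ocular and KO skin the same opposite order was seen in 4 of 8762 genes counted in both, and it was not tested. S100a16 had a difference of −4.22 (4.28 against 36.2 CPM in KO ocular and 16.3 against 5.53 CPM in KO skin), Sod3 of −3.42, Cxcl2 of −4.60 (43.9 against 281 CPM in KO ocular) and Cxcl14 of 3.60 (20.9 against 8.19 CPM and 3.03 against 19.5 CPM). The KO skin matrix is shared by both comparisons. Fibroblast markers summed to 1640 CPM in cycling against 3638 CPM in reference cells of WT skin, with 7 of 8 at least 2-fold lower, to 1996 against 1401 CPM in KO skin, with 1 higher, and to 919 against 898 CPM in KO ocular, and none was at 0 in cycling cells. Their part in these results was not tested.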

How the results depend on the processing

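Values are in the order WT skin, KO skin, WT ocular, KO ocular unless named. The cycling share was 14.36, 10.27, 13.67 and 27.0% with at least 4000 UMIs, 16.82, 8.859, 14.39 and 30.59% with at least 3 of the 8 genes, and 7.319, 5.122, 5.272 and 17.63% with at least 5. It was 3.381, 2.351, 1.438 and 4.92% thinned to 2000 UMIs, 8.747, 7.847, 9.013 and 16.02% thinned to 5000, and 7.854, 5.29, 5.741 and 17.99% without cells holding 3 markers of another type. In WT ocular it was 10.53% with mitochondrial UMIs under 10%, 10.93% with 7 of 9 pigment genes and 7.44% with the same 7 genes. Genes at least 2-fold lower numbered 194, 51 and 42 in the first 3 matrices with a pseudocount of 10 CPM, 174, 27 and 17 with matched UMIs, and 954, 441, 437 and 1397 with at least 5 UMIs and no CPM minimum, where WT ocular had 433 higher. WT ocular had 79 lower against cells with 0 to 1 gene and 19 with 7 of 9 pigment genes, and without cells holding other markers the lower genes numbered 376, 174, 179 and 122. Cell cycle list genes at least 2-fold higher numbered 141, 141, 106 and 145, and 133 to 151, 135 to 147, 95 to 146 and 141 to 148 under the 8 alternatives run. The G2/M lean was 75.32, 80.92, 86.51 and 69.13% in cells called on 2000 UMIs, and 72.18% in WT ocular at full depth. Thinned, other types had shares of 0.0% (KO skin macrophages, neutrophils of WT ocular and of KO ocular) and, in WT ocular, 0.4202% (macrophages), 1.824% (fibroblasts), 3.774% (endothelial cells) and 0.2342% (rods). Thinned macrophages had 2.283% in WT skin and 3.077% in KO ocular, and T and NK cells of KO ocular had 0.0%.

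KO skin over WT skin had 536 genes higher and 374 lower with a pseudocount of 10 CPM, and 1111 lower with at least 5 UMIs and no CPM minimum. KO ocular over KO skin had 229 and 212, then 566 and 912. Directions turned at matched UMIs for S100a9 (0.009843) and S100a8 (0.005145) in WT skin and Pecam1 in KO ocular (0.7731). Without cells holding other markers they turned for Pecam1 in WT skin (0.0327) and KO ocular (0.1473), Lyz2 (0.07269) and Hbb-bt (0.005055) in WT ocular, and Klf2 in KO ocular (0.1738). The cause was not tested. Chosen after seeing the data were thinning to 5000 UMIs, the same 7 genes, the call on 2000 UMIs, the gene counts with 7 of 9 pigment genes or without cells holding other markers, and the settings between matrices.

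No paired analysis was possible because each name has 1 matrix and no replicate. For the same reason no replicate could be left out. Doublet scores in the top 5% held 6.238, 5.882, 2.849 and 5.45% of cycling cells and 2.868, 3.834, 5.127 and 3.399% of reference cells. Depth limits detection of the 8 genes, so shares at full depth are not comparable between matrices.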
